A study of Columba livia and Gallus gallus with 96 samples.

Results

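A list of 46 genes of the contractile machinery of muscle was followed in RNA-seq counts from limb buds of domestic pigeon (Columba livia) embryos. They were chosen by symbol, as genes that encode filaments of the sarcomere, its troponin switch, its Z disc, the proteins that assemble it, its calcium supply or the acetylcholine receptor of the nerve–muscle junction. Of the 46 symbols, 39 were found among the 15899 genes formed by summing counted features of the same name. TPM2, MYL4, MYLPF, DES, RYR1, TRDN and CKM were not analysed here. The 72 libraries form 18 groups of 4, in which 3 foot phenotypes are crossed with limb (forelimb or hindlimb) and with developmental stage. The stages HH21, HH25 and HH29 of the Hamburger–Hamilton series were taken at embryonic days 3.5, 4.5 and 6. The phenotypes are scale, with scaled feet, and grouse and muff, both with feathered feet. Each library was made from poly(A) RNA of dissected buds. The labels give no breed, no number of embryos per library and no separate parents for the replicates, so the p-values measure the spread between these libraries.

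As background, limb muscle cells do not arise in the bud. They migrate in from the somites as precursors that carry the transcription factors PAX3 and LBX1, then switch on the myogenic regulators MYF5, MYOD1 and MYOG, and fuse into fibres. Fibres build sarcomeres, in which thin filaments of actin, with troponin along them, are anchored at Z discs and pulled by thick filaments of myosin, while titin spans between Z disc and M band. Calcium released from the sarcoplasmic reticulum binds troponin C and frees the thin filament for myosin. In chick and mouse, cardiac actin and cardiac troponin T are made early in skeletal muscle too, before the adult skeletal forms take over.

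Counts per library ran from 10438537 to 16378164, with a median of 12915094.5. The limb identity genes matched the limb labels. TBX5 lay between 142 and 374 counts scaled to library size (CPM) in forelimbs and at 66.4 or less in hindlimbs, while TBX4 lay between 112 and 230 CPM in hindlimbs and at 4.96 or less in forelimbs. Between limbs of the same replicate number, the log2 ratio of hindlimb to forelimb TBX5 had a median of -6.02 at HH29. It was -2.35 in the closest pair, so hindlimbs differed in TBX5. PITX1 was higher in the hindlimb in 12 of 12 pairs at each stage. CPM were scaled by library and not by gene length, so levels are compared between libraries and not between genes. Symbols on near-identical copies are uncertain, as reads of the actins ACTC1, ACTA1 and ACTA2 could be split between them. The neighbours CHRNG and CHRND have 0 protein-coding genes between them, and TNNI1 and TNNT2 have 1.

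The contractile genes rose from a trace at HH21 to a small share of the scaled counts at HH29, with medians of 0.409% in forelimbs and 0.385% in hindlimbs. In the 12 forelimb libraries of a stage, the summed level of the 39 genes was 74.7 to 158 CPM at HH21 (median 93.3), 605 to 2333 CPM at HH25 (median 918) and 2852 to 5017 CPM at HH29 (median 4091). In the hindlimb it was 62.2 to 124 CPM at HH21 (median 87.6), 320 to 2049 CPM at HH25 (median 648) and 3013 to 4724 CPM at HH29 (median 3853). The 3 stages did not overlap in either limb. The spread within a stage was widest at HH25, where the highest hindlimb library was 6.40 times the lowest, against 1.57 times at HH29. At HH21 between 29 and 37 of the 39 genes had at least 1 count in a library, and 38 or 39 did at the later stages. In bulk tissue, fewer muscle cells and less RNA per cell cannot be told apart.

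**Figure D1:**
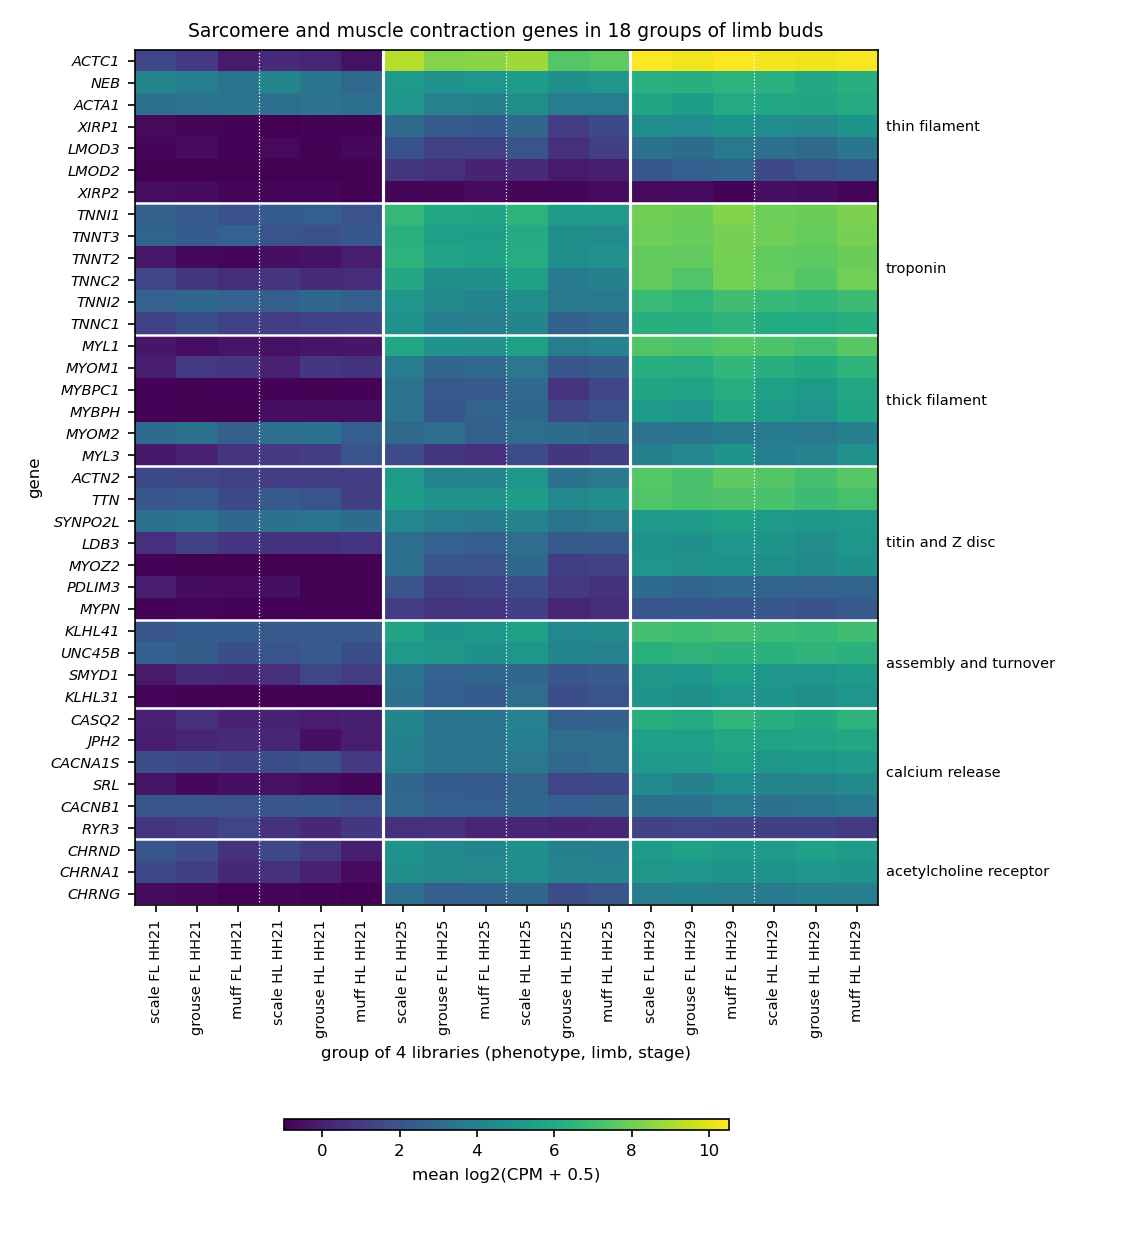
Mean level of each of the 39 genes in each of the 18 groups of 4 libraries, as log2(CPM + 0.5), with genes grouped by role and groups ordered by stage, limb and phenotype. Nearly all rows step up from HH21 to HH25 and again to HH29, while XIRP2 stays low throughout and MYOM2 changes little between HH21 and HH25.

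Between HH21 and HH25, 36 of the 38 genes that passed the filter on low counts rose in the forelimb and 1 fell, by edgeR's quasi-likelihood test with an adjusted p below 0.05. Of all genes tested in that comparison, 30.1% rose and 23% fell. In the hindlimb 34 of 38 rose and 1 fell, against 27.8% and 26.1% of all genes. The gene that fell in both limbs was RYR3, a calcium release channel of the sarcoplasmic reticulum. MYOM2, an M-band protein, had log2 changes of -0.01 ± 0.14 (SE) in the forelimb and -0.01 ± 0.16 in the hindlimb, and hindlimb MYL3 and SYNPO2L were not called either. Between HH25 and HH29, all 38 genes tested rose in both limbs, against 22.7% of all genes in the forelimb and 25.2% in the hindlimb. XIRP2, which encodes an actin-binding protein of the Xin family, did not pass the filter and never exceeded 0.44 CPM. The filter took all stages of a limb together, so a gene near 0 at an early stage could pass through its later levels alone. For such genes a rise was close to fixed in advance, here and in the counts by phenotype, role and list below. The shares of all genes went through the same filter.

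The rise was seen in each phenotype. Between HH21 and HH25, 36 genes rose in scale forelimbs, 33 in grouse and 32 in muff, against 18.7%, 14.9% and 17.2% of all genes. In hindlimbs 34, 31 and 34 rose, against 17%, 16% and 18.1%. Between HH25 and HH29, 29 rose in scale forelimbs, 35 in grouse and 37 in muff, against 9.16%, 9.66% and 17.6% of all genes. In hindlimbs the counts were 28, 37 and 37, against 8.79%, 10.9% and 20.1%. The median log2 change between HH25 and HH29 was 1.36 in scale forelimbs, 1.96 in grouse and 2.47 in muff, and 1.53, 2.56 and 2.83 in the hindlimbs. Differences between phenotypes in the change with stage were not tested.

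Genes differed in when they reached a fixed level, which is not first detection. Counting a gene as present where all 4 libraries of a group had at least 1 CPM, 13 genes were present from HH21 in all 6 combinations of limb and phenotype. They were ACTA1, NEB, TNNC1, TNNI1, TNNI2, TNNT3, MYOM2, ACTN2, SYNPO2L, UNC45B, KLHL41, CACNA1S and CACNB1. A further 8 were present from HH25 in all 6, namely ACTC1, TNNT2, MYL1, MYBPH, KLHL31, JPH2, CASQ2 and SRL, and LMOD2 was present from HH29. By this level the troponins TNNC1, TNNI1, TNNI2 and TNNT3 and the Z-disc actinin ACTN2 were present at the first stage in all 6. Cardiac actin, cardiac troponin T and the fast myosin light chain MYL1 reached it in all 6 at the next. For 16 genes the stage differed between combinations, and XIRP2 was never present. In the hindlimb the Z-disc genes MYPN, MYOZ2 and PDLIM3 were present from HH25 in scale and from HH29 in grouse and muff. In forelimbs MYPN had the same stages, PDLIM3 was present from HH29 in grouse only, and MYOZ2 was present from HH25 in every phenotype. CHRNG, LMOD3, MYBPC1 and XIRP1 were present from HH25 in scale and muff hindlimbs and from HH29 in grouse hindlimbs. LMOD3 had the same stages in forelimbs, where CHRNG, MYBPC1 and XIRP1 were present from HH25 in every phenotype. CHRNA1 and TNNC2 were present from HH21 in scale forelimbs and from HH25 in the other combinations. MYOM1 was present from HH21 in both grouse limbs and muff forelimbs, LDB3 in grouse forelimbs and SMYD1 in grouse hindlimbs, otherwise from HH25. MYL3 in muff hindlimbs and RYR3 in muff forelimbs were present at HH21, not at HH25, and again at HH29. Elsewhere both were present from HH29, except RYR3 in muff hindlimbs, never present. CHRND in scale and grouse forelimbs, and TTN in all but muff hindlimbs, were present from HH21, otherwise from HH25. These stages depend on a fixed level, not scaled by gene length, so they do not order genes against each other. They carry no test. A gene under that level can still have counts, as ACTC1 did in every HH21 library. At HH25 the median gene stood at 22.2% of its HH29 level in the forelimb and at 17.8% in the hindlimb, and at HH21 at 1.64% and 1.41%.

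Thin filament genes reached the level for presence at different stages. ACTC1, the cardiac alpha-actin that is the main early sarcomeric actin, had 0.225 to 28.9 CPM in HH21 forelimbs (median 0.623), 187 to 895 CPM at HH25 (median 358) and 996 to 1689 CPM at HH29 (median 1379). In the hindlimb it had 0.0819 to 6.65 CPM (median 0.391), 86.1 to 765 CPM (median 222) and 1051 to 1519 CPM (median 1245). The stages did not overlap, and at HH21 the highest libraries of both limbs were replicate 1 of scale. ACTC1 rose by a log2 change of 7.91 ± 0.47 in the forelimb (adjusted p = 1.74e-15) and 8.80 ± 0.42 in the hindlimb (adjusted p = 1e-17) from HH21 to HH25, and by 1.61 ± 0.31 and 2.09 ± 0.26 from HH25 to HH29. Its share of the summed reads of the list had a median of 0.72% at HH21, 38.2% at HH25 and 33.6% at HH29 in the forelimb. NEB encodes nebulin, a giant protein that runs along the thin filament. Its forelimb level was 8.61 to 26.7 CPM at HH21, 20.5 to 47.4 CPM at HH25 and 64.6 to 126 CPM at HH29, so its first 2 stages overlapped. NEB rose by 1.18 ± 0.14 and 1.29 ± 0.14 in the 2 steps. The skeletal actin ACTA1 was already at 6.57 to 13 CPM in HH21 forelimbs, and reached 11.4 to 55.6 CPM and 34.3 to 79.5 CPM. LMOD2, a leiomodin known from mouse heart to lengthen thin filaments, had at most 0.0619 CPM at HH21, 0.17 to 2.45 CPM at HH25 and 3.15 to 8.67 CPM at HH29 in forelimbs. XIRP1, an actin-binding Xin protein, went from at most 0.252 CPM to 2.55 to 12.2 CPM and 20.2 to 37.4 CPM. LMOD3, the skeletal leiomodin, had forelimb medians of 0.0762, 1.91 and 9.98 CPM. All 6 thin filament genes tested rose in each step in both limbs.

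All 6 troponin genes rose in each step in both limbs. TNNI1, the slow skeletal troponin I, had 1.98 to 7.62 CPM in HH21 forelimbs (median 3.61), 37.9 to 170 CPM at HH25 (median 58.6) and 174 to 349 CPM at HH29 (median 267). The stages did not overlap. It rose by 4.13 ± 0.22 and 1.86 ± 0.18 on the log2 scale, and in hindlimbs by 3.71 ± 0.23 and 2.23 ± 0.20. TNNT3, the fast skeletal troponin T, had 3.47 to 7.46, 25.9 to 103 and 176 to 320 CPM in forelimbs and rose by 3.40 ± 0.17 and 2.18 ± 0.14. The cardiac form TNNT2 had a forelimb median of 0.0796 CPM at HH21 but 51.7 CPM at HH25 and 233 CPM at HH29. TNNC2, the fast calcium-binding subunit, had medians of 1.24, 29.9 and 223 CPM. The slow and cardiac subunit TNNC1 had 2.17, 14.4 and 80.1 CPM, and the fast troponin I TNNI2 had 6.33, 20.2 and 112 CPM.

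Thick filament and M-band genes were less uniform. MYL1, a fast skeletal myosin light chain, went from 0 to 0.838 CPM in HH21 forelimbs to 14.7 to 109 CPM at HH25 and 94.7 to 258 CPM at HH29, where the lowest library lay under the highest of the stage before. It rose by 7.25 ± 0.37 and 2.05 ± 0.21. MYOM1, the M-band protein myomesin, rose by 3.27 ± 0.21 and 3.10 ± 0.16, from a median of 1.15 CPM to 8.41 and 83.8 CPM. MYL3 encodes the slow and ventricular light chain. Its forelimb level was 0.169 to 3.16 CPM at HH21 (median 0.407), 0.256 to 5.21 CPM at HH25 (median 1.05) and 6.78 to 37.0 CPM at HH29 (median 24.7), with the first 2 stages overlapping. In the hindlimb its HH21 and HH25 medians were 2.81 and 1.71 CPM, and the log2 change of -0.24 ± 0.35 was not called (adjusted p = 0.588). MYOM2 had forelimb medians of 7.01, 6.62 and 11.1 CPM and rose in the later step by 0.70 ± 0.14. In HH21 forelimbs the myosin-binding proteins MYBPC1 and MYBPH both had a median of 0 CPM, and MYBPC1 reached forelimb medians of 3.54 and 55.1 CPM. In HH21 hindlimbs the median of MYBPC1 was also 0, while that of MYBPH was 0.402% of its HH29 median.

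Titin and the Z-disc genes rose, 7 of 7 tested in the forelimb and 6 of 7 in the hindlimb in the earlier step. ACTN2, the alpha-actinin that ties thin filaments at the Z disc, had 1.41 to 2.89 CPM in HH21 forelimbs (median 2.13), 10.6 to 56.2 CPM at HH25 (median 20.1) and 107 to 247 CPM at HH29 (median 175), without overlap. It rose by 3.47 ± 0.18 and 2.89 ± 0.15, and in hindlimbs by 3.46 ± 0.25 and 3.21 ± 0.19. TTN, which encodes titin, had 1.57 to 8.83, 20.3 to 56.2 and 104 to 274 CPM in forelimbs and rose by 3.28 ± 0.22 and 2.20 ± 0.18. The hindlimb exception was SYNPO2L, an actin- and actinin-binding protein, which ranged from 2.86 to 21.8 CPM at HH21 and 4.34 to 25.9 CPM at HH25. Forelimb medians were 1.45, 6.28 and 30.8 CPM for LDB3, an actinin-binding protein, 0.222, 2.3 and 6.94 CPM for its relative PDLIM3, and 0.0357, 1.27 and 3.7 CPM for myopalladin, MYPN. MYOZ2, which binds actinin and calcineurin, had medians of 0, 3.64 and 30.2 CPM.

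The 4 assembly and turnover genes rose in each step in both limbs. KLHL41, a kelch protein that stabilises nebulin in mouse, had 2.61 to 6.81, 22 to 62.2 and 107 to 162 CPM in forelimbs, and rose by 3.2 ± 0.15 and 1.74 ± 0.13. UNC45B, the myosin chaperone, rose by 2.87 ± 0.23 and 1.29 ± 0.20, from a median of 3.6 CPM to 30.1 and 86.1 CPM. SMYD1, a methyltransferase that acts with UNC45B in building thick filaments in zebrafish, rose by 3.74 ± 0.27 in the forelimb and 1.83 ± 0.29 in the hindlimb from HH21 to HH25. KLHL31, another kelch protein, had forelimb medians of 0, 5.28 and 28.8 CPM.

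Among the 6 calcium release genes, 5 rose and RYR3 fell in the earlier step in both limbs. CASQ2, the calsequestrin that stores calcium, had 0.253 to 1.36, 7.16 to 34.1 and 45.7 to 116 CPM in forelimbs and rose by 4.30 ± 0.29 and 2.43 ± 0.20. JPH2, a junctophilin that holds the reticulum near the surface membrane, had 0.169 to 1.67, 5.47 to 30.7 and 33.8 to 77.9 CPM and rose by 4.27 ± 0.29 and 1.92 ± 0.20. Neither gene had overlapping stages in the forelimb. RYR3 fell by 0.72 ± 0.24 in forelimbs (adjusted p = 0.0122) and by 0.70 ± 0.29 in hindlimbs (adjusted p = 0.0388), from medians of 1.46 and 0.903 CPM to 0.994 and 0.623 CPM, with overlapping libraries. It then rose by 1.16 ± 0.23 and 1.28 ± 0.27 to HH29. SRL, the calcium-binding protein sarcalumenin, had forelimb medians of 0.173, 4.63 and 20.9 CPM. Of the voltage-gated calcium channel, the pore subunit CACNA1S had 2.19, 12.1 and 41.4 CPM and the beta subunit CACNB1 had 3.55, 5.77 and 10.4 CPM.

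The acetylcholine receptor subunits had larger log2 changes in the earlier step than in the later, as did genes of other roles such as ACTC1, MYL1 and TNNI1. CHRNA1, the alpha subunit, had 0.309 to 4.95 CPM in HH21 forelimbs (median 1.44), 16.3 to 31.8 CPM at HH25 (median 22.1) and 25.3 to 36.7 CPM at HH29 (median 33.5), with the later stages overlapping. It rose by 3.85 ± 0.20 and then by 0.47 ± 0.16. In hindlimbs the steps were 5.33 ± 0.27 and 0.66 ± 0.18. CHRND, the delta subunit, rose by 3.41 ± 0.21 and 0.79 ± 0.17 in forelimbs, from a median of 2.47 CPM to 20.9 and 41.3 CPM. CHRNG, the gamma subunit of the embryonic receptor, had medians of 0, 5.72 and 14.8 CPM. The median log2 change of all 38 genes tested in the later step was 1.95 in forelimbs and 2.28 in hindlimbs.

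Myogenic regulators and other muscle genes were counted in the same fits. Of 11 myogenic regulators measured, 8 rose and 2 fell in forelimbs from HH21 to HH25, against 30.1% and 23% of all genes, and 5 rose and 3 fell from HH25 to HH29, against 22.7% and 24%. The forelimb medians of MYOD1 were 2.89, 55.6 and 87.4 CPM. Of 23 other sarcomere and muscle genes tested in forelimbs in the earlier step, 19 rose. The highest of them in mean CPM were TPM1, a tropomyosin, with forelimb medians of 246, 329 and 377 CPM, and TMOD1, which caps thin filaments, with 6.24, 19.2 and 65.2 CPM. In the later step 20 of them rose in forelimbs, and CKMT2, a mitochondrial creatine kinase, fell by 1.46 ± 0.40 (adjusted p = 0.00342).

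**Figure D2:**
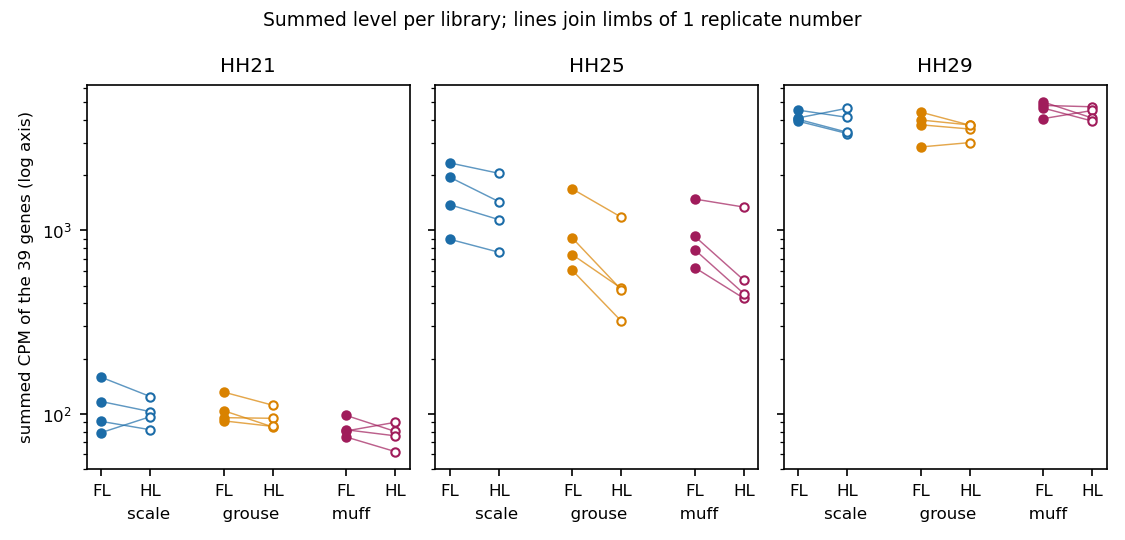
Summed CPM of the 39 genes in each of the 72 libraries, on a log axis, by stage and phenotype, with filled points for forelimbs, open points for hindlimbs and lines joining the limbs of a replicate number. At HH25 the hindlimb point lies below the forelimb point of its number in all 12 pairs, and the 4 replicates of a group are spread widest there.

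Forelimb and hindlimb were compared next, to see whether the 2 limbs build muscle on the same schedule. At HH25 the summed level was lower in the hindlimb in 12 of 12 pairs, and 28 of the 39 genes were lower in at least 10. The summed level in scale forelimbs was 1381, 894, 1949 and 2333 CPM in replicates 1 to 4, against 1145, 760, 1436 and 2049 CPM in the hindlimbs of the same numbers. In grouse it was 605, 737, 1683 and 908 CPM against 320, 483, 1180 and 475 CPM, and in muff 928, 627, 784 and 1482 CPM against 536, 427, 453 and 1341 CPM. The groups overlapped in each phenotype, although every hindlimb library lay below its own forelimb partner. The median log2 ratio of the sums was -0.53.

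Without pairing, 0 of 38 genes were called at HH25 by edgeR, against 7.67% of all genes. At an unadjusted p below 0.05 there were 4, against 16.7% of all genes, and DESeq2 also called 0, against 8.89%. Of the 38 estimates 35 lay below 0, with a median log2 difference of -0.43, a count for which no share of all genes was taken. The limbs of 1 replicate number varied together, so a second fit took phenotype and number as a block. That fit called 31 of 38 genes, all lower in the hindlimb, against 13.7% of all genes called lower in it. They were 5 of 6 thin filament genes, 6 of 6 troponins, 4 of 6 thick filament genes, 5 of 7 titin and Z-disc genes, 4 of 4 assembly genes, 4 of 6 calcium genes and 3 of 3 receptor subunits. ACTC1 was lower by a log2 difference of -0.66 ± 0.06 (adjusted p = 1.35e-08 with the block, 0.328 without). TNNC1, the slow and cardiac troponin C, differed by -0.93 ± 0.10 and MYBPC1, a myosin-binding protein C, by -1.01 ± 0.10 with the block. MYL1 differed by -0.66 ± 0.07 and UNC45B by -0.52 ± 0.07. The 7 genes not called with the block were CACNB1, MYL3, MYOM2, MYPN, NEB, RYR3 and TTN.

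The same direction was counted pair by pair. Of the 39 genes, 14 were lower in the hindlimb in 12 of 12 pairs at HH25, namely ACTC1, TNNC1, TNNC2, TNNI1, TNNI2, TNNT2, MYL1, MYBPC1, MYBPH, MYOZ2, UNC45B, CASQ2, SRL and CHRNG. MYL3 and MYOM2 went the other way, higher in the hindlimb in 9 of 12 pairs, and NEB and LMOD3 were split 6 to 6. Among all 12264 genes with a mean of at least 1 CPM, 4.43% were lower in all 12 pairs and 14.9% in at least 10. Myogenic regulators were mixed beside this. With the block, 3 of 11 were higher in the hindlimb, MYF5 by 0.39 ± 0.05, MYF6 by 0.58 ± 0.14 and MET, and 6 were lower, among them MYOG by -0.37 ± 0.09 and MYOD1 by -0.18 ± 0.04. Without it, MYF5 and MET were called higher. MYF5 was higher in the hindlimb in 12 of 12 pairs. Markers of other cell types differed between the limbs as well. Without the block, 1 of 5 cartilage markers was called, SOX9, the cartilage transcription factor, lower in the hindlimb by -0.49 ± 0.13 and in 12 of 12 pairs. The other 4 cartilage markers were lower in 5 or 6 of 12 pairs. Of 2 neural crest and Schwann cell markers tested, SOX10 was lower by -0.53 ± 0.14 and in 10 of 12 pairs, and the summed level of that list was 9.3 to 23 CPM in forelimbs and 7.47 to 17 CPM in hindlimbs. Of 4 endothelial markers CDH5 was higher, by 0.18 ± 0.05 and in 11 of 12 pairs, and with the block 3 of the 4 were higher. The 4 smooth muscle markers were each lower in 8 of 12 pairs, with 0 called, or 1 with the block. Heart markers summed to at most 1.18 CPM in either limb, and TBX20 among them was lower in 12 of 12 pairs. The part of these markers in the result was not tested.

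**Figure D3:**
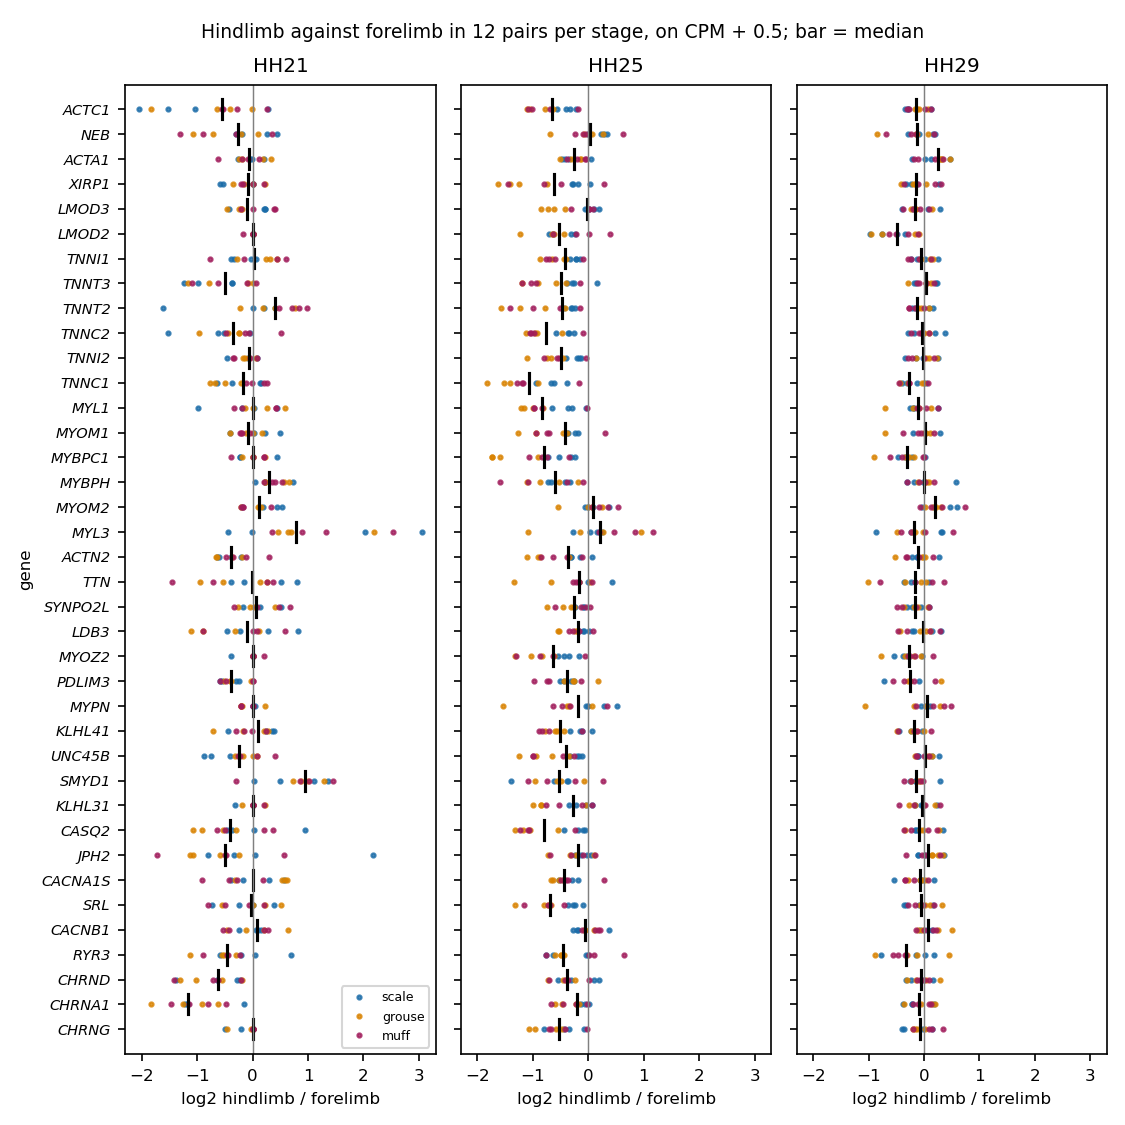
Log2 ratio of hindlimb to forelimb level for 38 genes in the 12 limb pairs of each stage, with a bar at each gene's median. Medians lie on both sides of 0 at HH21, where the median over the 38 genes was -0.05. They lie below 0 for most genes at HH25, where it was -0.43. At HH29 most also lie below 0 but by less, with a median of -0.08.

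At HH21 the limbs differed in a few genes in both directions. The summed level was lower in the hindlimb in 10 of 12 pairs. Of the 39 genes, 2 were lower in all 12, against 3.12% of all genes with a mean of at least 1 CPM. In at least 10 pairs 8 were lower, against 11.4%, and 4 were higher, a count for which no share of all genes was taken. Those 4 were MYBPH (12 of 12), SMYD1 (11 of 12), TNNT2 and MYL3 (10 of 12 each). MYBPH and TNNT2 did not reach the level for presence in any HH21 group. Of the 25 genes tested 3 were called without the block, against 6.02% of all genes. CHRNA1 was lower in the hindlimb by -1.76 ± 0.45 (adjusted p = 0.0162), with 0.309 to 4.95 CPM in forelimbs and 0 to 1.92 CPM in hindlimbs, where 2 libraries were at 0, and it was lower in 12 of 12 pairs. SMYD1 was higher by 1.33 ± 0.26 (adjusted p = 0.00172), with 0.336 to 1.22 CPM in forelimbs (median 0.663) and 0.346 to 2.71 CPM in hindlimbs (median 1.81), in 11 of 12 pairs. MYL3 was higher by 1.74 ± 0.45 (adjusted p = 0.0186), with medians of 0.407 and 2.81 CPM, in 10 of 12 pairs. All 3 genes overlapped between limbs. With the block 8 genes were called, against 16.6% of all genes, and SMYD1 and MYL3 were the ones higher in the hindlimb. The lower ones were CHRNA1 (-1.78 ± 0.28), ACTC1 (-1.38 ± 0.29), CHRND (-0.94 ± 0.19), TNNT3 (-0.59 ± 0.15), RYR3 (-0.52 ± 0.16) and ACTN2 (-0.45 ± 0.12). Of 9 myogenic regulators tested, 0 were higher in the hindlimb and 2 lower, PAX7 by -0.99 ± 0.19 and PAX3 by -0.32 ± 0.09, and 6 were lower with the block. MYOD1 was lower in 11 of 12 pairs and LBX1 in 10 of 12, while MEF2C was higher in 8 of 12. The part of these regulators in the result was not tested.

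Some HH21 hindlimb libraries also carried markers of other muscle types. The 4 smooth muscle markers present of 6 listed, ACTA2, TAGLN, MYH11 and LMOD1, summed to 6.84 to 24.8 CPM in HH21 forelimbs and 10.9 to 419.8 CPM in hindlimbs, and ACTA2 was higher in the hindlimb by 3.5 ± 0.67 (adjusted p = 0.00134). The other 3 were not called, with TAGLN and MYH11 each lower in the hindlimb in 6 of 12 pairs and LMOD1 in 3 of 12. The highest log2 ratio of hindlimb to forelimb in a pair was 6.66 for MYH11 and 6.63 for ACTA2. It was 0.96 for TAGLN and 0.60 for LMOD1. Of 8 heart markers 3 were present. TBX20 was higher in the hindlimb by 2.77 ± 0.79 (adjusted p = 0.0352), GATA4 had at most 0.773 CPM there, and NKX2-5 was at 0 in every HH21 hindlimb library. The libraries highest in ACTA2 were scale replicate 4, where it made up 350.0 of the 419.8 CPM, and muff replicate 1, at 272 CPM. Leaving out these 2 libraries, SMYD1 stayed called at 1.17 ± 0.27 (adjusted p = 0.0103), while MYL3 at 1.47 and CHRNA1 at -1.57 had adjusted p = 0.0747 and 0.0564, and JPH2 was called at -1.32. With the block and without them, 8 genes were called, against 11.2% of all genes, among them MYL3, SMYD1 and CHRNA1. MYL3 also lost its call without scale replicate 4 alone (adjusted p = 0.0569). The part of these markers was otherwise not tested.

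**Figure D4:**
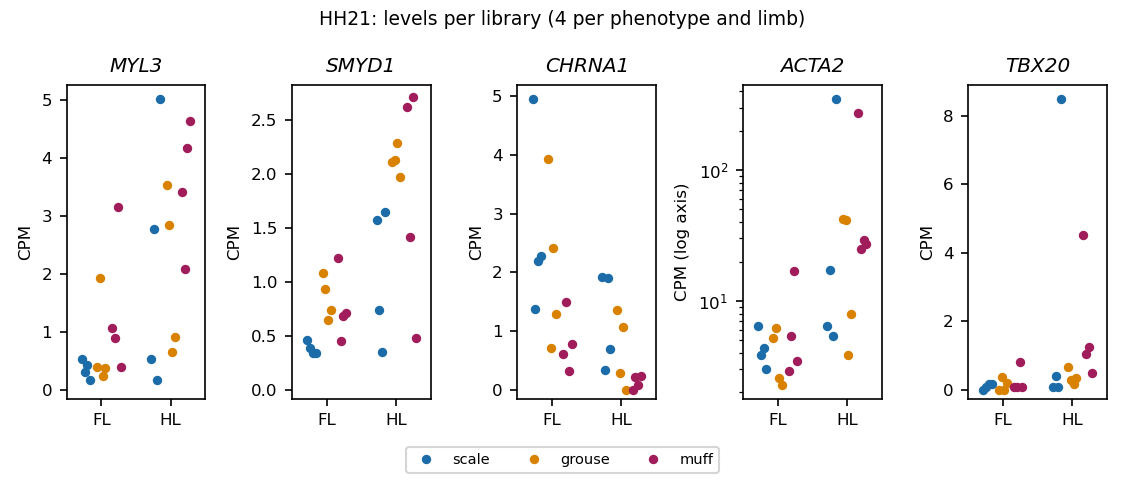
CPM per library at HH21 of MYL3, SMYD1, CHRNA1, the smooth muscle actin ACTA2 (log axis) and TBX20, by phenotype (colour) and limb, with forelimbs at the left and hindlimbs at the right of each panel. MYL3 and SMYD1 are higher in most hindlimbs, CHRNA1 is lower, and ACTA2 is highest in 1 scale and 1 muff hindlimb library.

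At HH29 the summed level was lower in the hindlimb in 9 of 12 pairs, with a median log2 ratio of -0.08 over genes. Of the 39 genes, 1 was lower in 12 of 12 pairs, against 3.6% of all genes with a mean of at least 1 CPM. In at least 10 pairs 6 were lower, against 12.9%. In most pairs 28 were lower, a count for which no share of all genes was taken. Without the block LMOD2 was the 1 gene called of 38, lower in the hindlimb by -0.58 ± 0.15 (adjusted p = 0.0163), against 7.95% of all genes. It had 3.15 to 8.67 CPM in forelimbs and 1.93 to 5.59 CPM in hindlimbs, overlapping, and was lower in 12 of 12 pairs. With the block 6 genes were called, against 16.9% of all genes. LMOD2 (-0.58 ± 0.10), MYBPC1 (-0.31 ± 0.07), MYOZ2 (-0.27 ± 0.06), KLHL41 (-0.20 ± 0.05) and TNNC1 (-0.20 ± 0.05) were lower in the hindlimb and MYOM2 was higher (0.27 ± 0.08). That count ranged from 5 to 11 without 1 pair, and with replicate numbers 3 and 4 alone it was 22, against 14.3% of all genes.

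The change of the limb difference between stages was tested directly. From HH21 to HH25 it was called for 2 of 38 genes, against 1.92% of all genes. For SMYD1 the hindlimb-minus-forelimb difference fell by 1.87 ± 0.43 (adjusted p = 0.00514), since it was higher in 11 of 12 hindlimbs at HH21 and lower in 11 of 12 at HH25. For CHRNA1 it rose by 1.51 ± 0.39 (adjusted p = 0.0201). Without the 2 libraries high in ACTA2, SMYD1 stayed called (-1.70, adjusted p = 0.0305) and CHRNA1 was at 1.32 with adjusted p = 0.0816. CHRNA1 also lost its call when any replicate number was left out, and SMYD1 without number 1 or number 3. With the block 9 genes were called, against 7.29% of all genes, with SMYD1 at -1.90 ± 0.24, CHRNA1 at 1.49 ± 0.24 and MYL3 at -1.56 ± 0.41. From HH25 to HH29, 0 of 38 genes were called by edgeR, against 0.802% of all genes. At an unadjusted p below 0.05 there were 3, against 7% of all genes, and DESeq2 also called 0, against 1.05%. Of 38 estimates 35 were above 0, a count for which no share of all genes was taken. With the block 20 genes were called, all with a higher hindlimb-minus-forelimb difference at HH29 than at HH25, against 4.18% of all genes called in that direction. Examples were TNNC1 at 0.77 ± 0.11, TNNC2 at 0.64 ± 0.10, UNC45B at 0.56 ± 0.09 and ACTC1 at 0.54 ± 0.09.

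Foot phenotypes were compared within each limb and stage, in a series on shifts of limb identity in feather-footed pigeons. At HH25 all 38 hindlimb estimates lay below 0 in grouse against scale, with a median log2 difference of -1.17, and all 38 in muff against scale, with a median of -0.91. Both comparisons use the same 4 scale libraries, and genes measured in the same libraries do not give separate signs. No share of all genes was taken for these signs. By edgeR without a block 0 genes were called in either, against 0.889% and 2.84% of all genes, although 24 and 20 had an unadjusted p below 0.05, against 12.9% and 18.8% of all genes. DESeq2 called 3 in grouse and 0 in muff, against 2.15% and 5.56%. The replicate numbers of scale varied together with those of grouse and of muff at this stage, but the labels do not pair libraries of different phenotypes. In hindlimbs, 2 of 4 scale libraries matched their own number best in grouse, and 2 of 4 in muff. With that limit, the fit with the number as a block is given beside. It called 13 genes lower in grouse hindlimbs, against 2.59% of all genes, and 14 lower in muff hindlimbs, against 6.38%. ACTN2 had 31.4, 17.4, 35.4 and 59.2 CPM in scale hindlimbs, 7.52, 6.94, 21.8 and 7.66 CPM in grouse and 9.05, 7.95, 11.8 and 25.7 CPM in muff. Grouse replicate 3 and muff replicate 4 overlapped the scale group. With the block ACTN2 differed by -1.66 ± 0.27 in grouse (adjusted p = 0.00178) and -1.39 ± 0.26 in muff (adjusted p = 0.00284). Without it the adjusted p-values were 0.0667 and 0.0797. ACTA1 had 20.4, 14.9, 35.6 and 39.9 CPM in scale hindlimbs, 10.3, 12.0, 19.6 and 15.1 CPM in grouse and 13.2, 9.32, 14.9 and 19.9 CPM in muff, also with overlap. It differed by -0.91 ± 0.20 and -0.90 ± 0.20 with the block.

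The count of called genes at HH25 rested on single libraries. Leaving out 1 library at a time with the block, it ranged from 1 to 26 in grouse hindlimbs and from 2 to 24 in muff hindlimbs. In forelimbs 36 of 38 estimates were below 0 in grouse and 38 of 38 in muff against scale, with medians of -0.74 and -0.81. For these signs too, no share of all genes was taken. Without the block edgeR called 0 genes in both, against 0.748% and 1.15% of all genes, with 6 and 7 at an unadjusted p below 0.05, against 11.6% and 14%, while DESeq2 called 0 and 1, against 1.61% and 2.49%. With the block ACTN2 and ACTA1 were called lower in both, against 2.12% and 3.43% of all genes. Between muff and grouse at HH25, 0 genes were called in forelimbs, against 1.46% of all genes, and 0 in hindlimbs, against 1.84%. At an unadjusted p below 0.05 there were 1 and 0 genes, against 11.4% and 13.5% of all genes, and DESeq2 called 1 and 0, against 2.79% and 3.15%. Beside these values, 0 of the myogenic regulators were called in grouse against scale hindlimbs and 1 was lower in muff. The smooth muscle markers summed to 43.8 to 120.5 CPM in scale hindlimbs, 25 to 51.6 CPM in grouse and 23.1 to 57.8 CPM in muff. Cartilage markers summed to 502 to 737 CPM, 378 to 860 CPM and 363 to 539.7 CPM. Their part in the result was not tested.

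**Figure D5:**
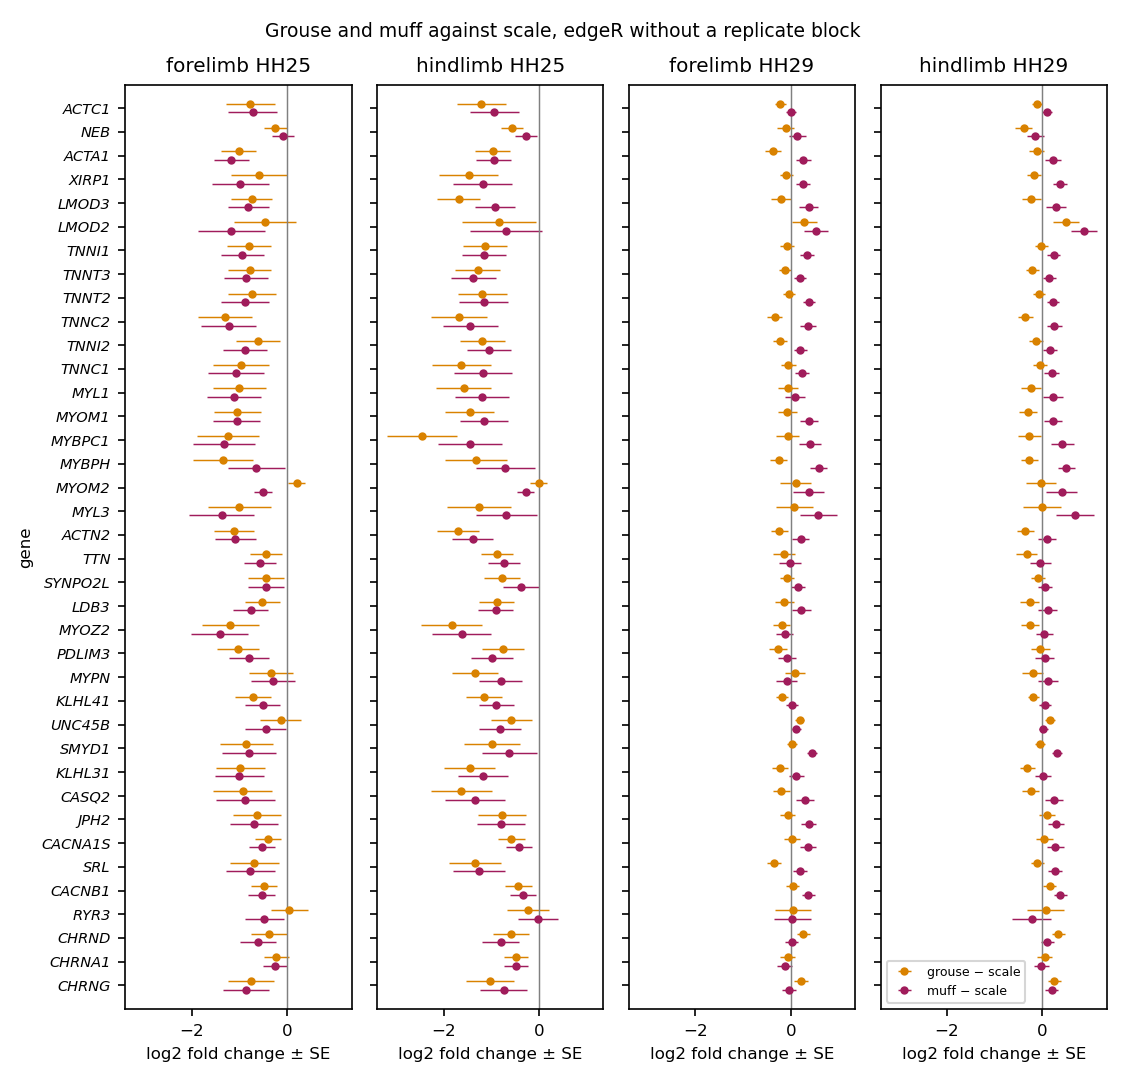
Log2 difference (± SE) of grouse and of muff from scale for each gene tested, in forelimbs and hindlimbs at HH25 and at HH29, from the fit without a block. At HH25 nearly all points lie below 0 in both limbs, and at HH29 they lie around 0.

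At HH21, 25 genes were tested and few differed between phenotypes. MYOM1 was higher in feather-footed forelimbs. It had 0.457, 0.383, 0.505 and 0.590 CPM in scale, 1.85, 1.36, 1.37 and 1.19 CPM in grouse and 1.52, 1.05, 1.61 and 1.10 CPM in muff, with no overlap with scale. It differed by 1.56 ± 0.28 in grouse (adjusted p = 0.0164, with 0.193% of all genes called) and by 1.45 ± 0.28 in muff (adjusted p = 0.0170, with 0.514%). The grouse call was lost without 1 of 3 single libraries and the muff call without 1 of 4, with adjusted p of 0.0712 or less. In hindlimbs MYOM1 was called in grouse against scale (1.2 ± 0.28, adjusted p = 0.0473, with 0.586% of all genes called). Leaving out any 1 library ended that call. Between muff and grouse forelimbs 0 genes were called, against 1.31% of all genes, with 4 at an unadjusted p below 0.05, against 12.5%, and 1 called by DESeq2, against 2.76%.

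Muff hindlimbs at HH21 were lower in 3 genes than scale hindlimbs, against 2.61% of all genes called. NEB had 27, 12.2, 21.6 and 18 CPM in scale and 3.18, 8.27, 7.58 and 13 CPM in muff, with 1 muff library inside the scale range, and differed by -1.32 (adjusted p = 0.0326). CHRND differed by -2.46 ± 0.59 (adjusted p = 0.0283), with 5.42, 0.983, 2.94 and 1.39 CPM against 0.318, 0.447, 0.309 and 0.880 CPM, without overlap. MYOM2 differed by -0.97 (adjusted p = 0.0251), and from grouse by -0.90 ± 0.22 (adjusted p = 0.0407, with 1.73% of all genes called, and 2 genes called with the number as a block, against 6.79%). Its muff libraries lay between 4.77 and 5.16 CPM, its grouse libraries between 8.01 and 10.2 CPM and its scale libraries between 5.08 and 12.3 CPM, of which 1 lay within the muff range. None of these hindlimb calls held without the 2 libraries high in ACTA2. Of 8 fits that each left out 1 library, the calls against scale were lost in 5 for NEB, 5 for CHRND and 6 for MYOM2. The MYOM2 call against grouse was lost in all 8. Without those 2, CHRND differed from scale by -2.52 (adjusted p = 0.0878), NEB by -1.1 (adjusted p = 0.138) and MYOM2 by -0.85 (adjusted p = 0.148), and MYOM2 differed from grouse by -0.92 (adjusted p = 0.07).

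At HH29 the calls lay between muff and the other phenotypes. Muff forelimbs exceeded grouse forelimbs in 6 of 38 genes, against 5.21% of all genes called higher. MYBPH, a myosin-binding protein, had 55.4, 58.8, 56.2 and 56.9 CPM in muff forelimbs, 21.1, 32.7, 38.5 and 35.2 CPM in grouse and 43.8, 32.4, 37.0 and 38.5 CPM in scale. Muff lay above all others, and differed from grouse by 0.84 (adjusted p = 0.00643). TNNC2 had 284, 236, 298 and 301 CPM in muff and 126, 209.7, 158 and 199.8 CPM in grouse, without overlap, and differed by 0.69 (adjusted p = 0.0119). SMYD1 had 45.5, 39.4, 47.7 and 50.3 CPM in muff, 32.7, 32.1, 35.9 and 36.8 CPM in grouse and 33.3, 33.5, 35.5 and 32.3 CPM in scale. It differed from grouse by 0.41 (adjusted p = 0.0143) and from scale by 0.44 (adjusted p = 0.0299, with 2.08% of all genes called), and the call against scale was lost without 7 of 8 single libraries. The other 3 were ACTA1 (0.63), SRL (0.54) and TNNT2 (0.41). The calls of MYBPH, TNNC2 and SMYD1 against grouse held without each single library, and those of ACTA1, SRL and TNNT2 did not. In a fit on the muff and grouse libraries alone, MYBPH stayed called, while TNNC2 and SMYD1, at about the same differences, had adjusted p = 0.0689 and 0.0892.

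In hindlimbs at HH29, 3 genes were higher in muff than in grouse, against 2.29% of all genes. MYBPH differed by 0.78 (adjusted p = 0.0170), with 55.8, 66.5, 45.6 and 53.6 CPM against 21.4, 35.0, 39.8 and 32.5 CPM. TNNC2 differed by 0.61 (adjusted p = 0.0406) and XIRP1 by 0.55 (adjusted p = 0.0346), with XIRP1 at 34.5, 34.9, 28.9 and 25.6 CPM in muff and 18, 19.5, 21.8 and 25.2 CPM in grouse. Muff lay above grouse in all 3 genes. Of 8 fits that each left out 1 library, the call was lost in 2 for MYBPH, 6 for XIRP1 and 7 for TNNC2. Beside the muff and grouse values at HH29, the smooth muscle markers summed to 58.8 to 131 CPM in muff forelimbs and 158 to 191 CPM in grouse forelimbs, and to 59.2 to 161 CPM and 169 to 214 CPM in the hindlimbs, without overlap in either limb. Their part in the result was not tested. Grouse and scale differed in 0 genes in forelimbs, against 0.484% of all genes, and in 0 in hindlimbs, against 0.469%. At an unadjusted p below 0.05 there were 2 and 3 genes, against 10.2% and 9.46% of all genes, and DESeq2 called 0 in both, against 0.961% and 1.01%. Muff and scale hindlimbs differed in 0 genes, against 1.21% of all genes, with 5 at an unadjusted p below 0.05, against 17.1%, and 0 called by DESeq2, against 3.67%.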

How the data were processed

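The deposited files hold whole-number counts of reads per feature, 1 file per library, and were used as the authors made them. Per the submitters' processing notes, the tools were FastQC, STAR, featureCounts and DESeq2, with no versions. The strand setting and the genome build were not given in the sources used here. Buds were taken in forelimb and hindlimb pairs, per the labels' protocols, and stranded oligo(dT)-selected libraries were run paired-end, 12 to a lane, with no record of which shared a lane. The authors' own comparison tables served only to name features. The 24 chicken libraries were not analysed here, because their labels disagree on the stage.

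Counts of features with the same symbol were summed to 15899 genes, of which 1710 come from several features. Tests used edgeR 4.0.16 in R 4.3.3 (quasi-likelihood, TMM scaling, filterByExpr, Benjamini–Hochberg over all genes tested, adjusted p below 0.05). Stages were compared in 1 fit per limb (36 libraries), limbs and phenotypes in 1 fit per stage (24 libraries), and the change of the limb difference in 1 fit of all 72, in 39 comparisons. Contrasts over phenotypes are means of the 3. Standard errors are the log2 difference divided by the square root of F. CPM used 1 set of TMM factors over the 72 libraries, with a pseudocount of 0.5 for log2 ratios and the heat map. Tables and figures were made in Python 3.11.15 with pandas 2.3.3 and matplotlib 3.10.9. The fits were tested on simulated counts. Alternatives were DESeq2 1.42.0, other scaling, no filter, single features, blocks, subsets of libraries and leaving out each library.

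Limb libraries of the same number deviated together from their group means. In 9 group pairs the 36 correlations lay between 0.217 and 0.722, and each of 36 libraries matched its own number best, so limb results are given with and without the block. This pairing follows from the data and from the labels' paired dissection. Between phenotypes the correlations lay between -0.264 and 0.460, and all 4 exceeded 0.1 in 5 of 18 group pairs. These were scale with grouse and with muff in both limbs at HH25 and grouse with muff in hindlimbs at HH21. The own number was the best match in only 27 of 72 cases between phenotypes. For scale with grouse and with muff at HH25 it was so in 1 and 3 of 4 in forelimbs and 2 and 2 in hindlimbs. For grouse with muff in hindlimbs at HH21 it was 0 of 4. The labels give no pairing between phenotypes. Within groups, no replicate pair agreed within sampling noise.

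The genes and lists were chosen with earlier results of these data known. Values are given for the 2 genes of each role with the highest mean CPM. They are also given for genes called, without a block, between limbs or phenotypes or for a limb difference that changes with stage. For many of these genes the stage values are forelimb ranges or medians only, not levels in every group. Genes called only with the block are named as examples, chosen after their values were seen. Of other lists, not every gene is named. Those named include some with the highest mean CPM, some that went against most of their list and some that were called, such as SOX9 and CDH5. No sequences are shown, and the motif search planned for promoters was not run, because no sequence table or genome was used here.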

Additional observations from a re-analysis of the deposited data

Results flagged for a closer look

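The summed level of the 39 genes in muff hindlimbs at HH25 was 1341 CPM in replicate 4, against 427 to 536 CPM in the other 3 libraries of that group. The gap to the nearest library was 0.88 of the group's range, above Dixon's 95% critical value for 4 samples. In all, 49 groups of values were tested this way, and chance flags about 1 in 20. The forelimb library of the same number was also the highest of its group, at 1482 CPM.

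The difference between hindlimb and forelimb changed from HH21 to HH25 for CHRNA1, by 1.51 on the log2 scale, and for SMYD1, by -1.87, each by the test of that change itself in the fit without pairing. With the block the changes were 1.49 and -1.90. The call of CHRNA1 was lost when any 1 replicate number was left out, and that of SMYD1 without number 1 or number 3.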

How the results depend on the processing

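Among genes called without the block between limbs, between phenotypes or for a changed limb difference, no estimate changed sign in the alternatives compared. That check does not cover stage changes or genes called only with the block. The stage counts stayed within 1.5 times under every alternative. Leaving out 1 library at a time, the genes called from HH21 to HH25 numbered 36 to 37 in forelimbs and 34 to 36 in hindlimbs, and from HH25 to HH29 38 to 38 in both. Within phenotypes they numbered 35 to 36 (scale), 32 to 33 (grouse) and 33 to 34 (muff) in forelimbs and 34 to 34, 28 to 31 and 31 to 34 in hindlimbs for the earlier step, and 25 to 30, 32 to 35 and 37 to 37, and 26 to 31, 35 to 37 and 36 to 37 for the later. For the cases below the cause was not tested, beyond the smaller number of libraries in fits on subsets. Between limbs at HH21 the 3 calls became 0 within scale, grouse or muff alone, 0 with numbers 1 and 2 or 3 and 4 alone, and 8 with the replicate block. The 8 became 3 without the block, 0 in grouse, 0 in muff and 3 in scale alone, and 4 and 2 with numbers 1 and 2 and with 3 and 4. At HH25 the 0 calls became 31 with the block, 5 with a term for numbers 1 and 2 against 3 and 4 and 2 with numbers 1 and 2. The 31 became 0 without the block, 15 in muff alone and 17 in scale alone. At HH29 the 1 call became 0 within each phenotype, 6 with the block, 0 with numbers 1 and 2 and 3 with numbers 3 and 4. The 6 became 1 without the block, 0 in grouse alone, 2 in muff alone, and 0 and 22 with numbers 1 and 2 and with 3 and 4. Leaving out 1 library gave 2 to 5, 0 to 3 and 1 to 3 calls at HH21, HH25 and HH29, and leaving out 1 pair with the block 7 to 10, 29 to 31 and 5 to 11. The change of the limb difference gave 2 calls from HH21 to HH25, 9 with the block, 0 and 0 with numbers 1 and 2 and with 3 and 4, 1 without the 2 hindlimb libraries high in ACTA2, and 0 to 1 without 1 number. From HH25 to HH29 it gave 0, 20 with the block, and 0 to 0 without 1 number. Of all genes, those fits called, at HH21, 0.507% to 1.22% within 1 phenotype and 1.75% and 4.1% with the pairs of numbers, and with the block 1.33%, 5.25% and 11.2% in grouse, muff and scale and 8.74% and 11.9% with the pairs of numbers. At HH25 they called 27.8% with the block, 12.7% with the term and 4.65% with numbers 1 and 2, and with the block 8.32% in muff and 11.2% in scale. At HH29 they called 0.669% to 1.85% within 1 phenotype and 1.11% and 3.71% with the pairs of numbers, and with the block 1.31% in grouse, 8.77% in muff and 4.11% and 14.3% with the pairs of numbers. For the change of the limb difference from HH21 to HH25 they called 0.347% and 1.26% with the pairs of numbers and 1.74% without the ACTA2 libraries.

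Between phenotypes, fits on only the groups compared or on numbers 1 and 2 or 3 and 4 alone called 0 genes in forelimbs at HH21 for grouse and for muff against scale (1 each in the full fit). Forelimb muff against grouse gave 0 calls at HH21 and at HH25, and 1 by DESeq2, by the block and by that term at both. At HH25 forelimb grouse against scale gave 0, 2 with the block and 2 with that term, and muff against scale 0, 1 by DESeq2, 2 with the block, 2 with the term and 1 with numbers 3 and 4. Hindlimb grouse against scale gave 0, 3 by DESeq2, 13 with the block, 13 with the term and 1 with numbers 1 and 2. Muff against scale gave 0, 14 with the block, 13 with the term and 1 with either pair of numbers. Of all genes, the block and the term called 4.05% and 2.99%, 7.1% and 5.59%, 4.67% and 3.91%, and 13.2% and 11.6% in these 4 comparisons in turn. Without the block each of these 4 counts of 2, 2, 13 and 14 went back to 0, and leaving out 1 library they ranged over 1 to 6, 1 to 3, 1 to 26 and 2 to 24. At HH29 the 6 forelimb calls of muff against grouse became 1 with only those groups (1.06% of all genes) and 0 with either pair of numbers. The 1 of muff against scale became 2 by DESeq2, 2 with only those groups and 0 with either pair of numbers, and the 3 in hindlimbs became 0 with either pair of numbers. Hindlimb grouse against scale at HH21 fell from 1 to 0 by DESeq2, without the filter, with only those groups, with single features, with either pair of numbers and without the ACTA2 libraries. Muff against grouse there went from 1 to 2 by DESeq2, the block or the term, and to 0 without the filter, with only those groups, with either pair of numbers and without the ACTA2 libraries. Muff against scale went from 3 to 5 by DESeq2 (5.19% of all genes), 6 with the block (6.62%), 0 with only those groups, 0 and 1 with numbers 1 and 2 and with 3 and 4 and 0 without the ACTA2 libraries. Leaving out 1 library gave, for grouse against scale, muff against grouse and muff against scale in turn, 0 to 1, 0 to 0 and 0 to 1 at HH21, 0 to 0, 0 to 1 and 0 to 1 at HH25, and 0 to 0, 3 to 9 and 0 to 1 at HH29 in forelimbs, and 0 to 0, 0 to 0 and 0 to 3, 0 to 4, 0 to 0 and 0 to 14, and 0 to 0, 0 to 2 and 0 to 1 in hindlimbs. For single genes, 159 results without 1 library kept their call and 81 did not, and for the other alternatives 142 and 80.

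Requiring 5 CPM for presence instead of 1 moved the number of genes present in forelimbs at HH21 from 17 to 4 in scale, 17 to 5 in grouse and 16 to 2 in muff, and in hindlimbs from 14 to 4, 16 to 5 and 14 to 1. At HH25 it moved from 32 to 21 in grouse and 34 to 20 in muff forelimbs, and from 28 to 18 and 32 to 17 in hindlimbs. The alternatives with numbers 1 and 2 or 3 and 4 alone, and without the libraries high in ACTA2, were chosen after seeing the data. Counting error limits the genes with a few counts per library at HH21, where only 25 of the 39 could be tested between limbs or phenotypes.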

Other observations

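Myosin heavy chains named as adult skeletal forms were not among the genes chosen, but 15 counted features are named so in the authors' deposited tables, and 5 of them had any count. These features were picked after their values were seen. Their summed level in forelimbs was 0 to 0.533 CPM at HH21, 1.01 to 5.44 CPM at HH25 and 14.4 to 127.8 CPM at HH29, with no overlap between stages. In hindlimbs it was 0 to 0.506, 0.460 to 3.69 and 17.1 to 144.2 CPM, with overlap between HH21 and HH25. The hindlimb was lower in 11 of 12 pairs at HH25 and in 4 of 12 at HH29. Myosin heavy chain genes are near-identical copies, and 1 feature held 57.7% of these counts, so the split between them is uncertain.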
